A study of Mus musculus with 12 samples.

Results

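The genes described here are 9 genes of mouse cells, namely the oxidative stress genes Osgin1, Hmox1, Nqo1, Gclc, Gclm, Txnrd1, Srxn1 and Nfe2l2, and Ddit4, an inhibitor of the growth kinase mTOR. They were chosen by symbol, with earlier results of these data known, so shares of them that passed are descriptive. All 9 were found among the 12774 symbols of the expression table. The cells were C17.2, a mouse neural progenitor line, in 2 stable derivatives: C17.2b, which carries a tagged thyroid hormone receptor beta, and C17.2a, which carries a tagged thyroid hormone receptor alpha. The treated cells of each derivative were harvested after 6, 12 or 24 h with T3, also called triiodothyronine, which is the form of the hormone that binds the receptors, at 1e-07 M. The untreated cells were harvested at the same times without it, and all cells had first spent 24 h without serum. What promoter drives the receptor transgenes, and whether a derivative is 1 clone, is not stated in the labels. PolyA RNA was counted by digital gene expression, a method that reads a short tag from each transcript, in 6 libraries with T3 and 6 untreated ones, 1 for each line, treatment and time (12 in all). Levels are given as deposited, in RPM (tags per 1000000 tags of the library). The tag number behind a value was worked out from the steps between low values, and the implied depth lay between 7120000 and 19080000 tags per library. At these depths 3 tags correspond to 0.157 to 0.421 RPM.

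Most of these genes belong to the antioxidant programme of the transcription factor Nrf2, the product of Nfe2l2. Nrf2 is degraded through Keap1 in unstressed cells, and oxidants or electrophiles let it reach antioxidant response elements in the promoters of its targets. The targets include the rate-limiting steps of glutathione synthesis (Gclc and Gclm), the thioredoxin system (Txnrd1 and Srxn1), quinone reduction (Nqo1) and heme breakdown (Hmox1). Osgin1 encodes an oxidative stress induced inhibitor of cell growth. Ddit4, also called REDD1, acts through the TSC1 and TSC2 complex to hold mTOR complex activity down, and it is known as a gene induced by hypoxia, glucocorticoids and stress of the endoplasmic reticulum.

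The bases upstream of 4 of these genes are shown because they hold the letters of sites that stress and hormone factors are known to bind, in the gene called most firmly (Osgin1), in Ddit4, and in a pair of genes that did not pass the T3 test (Srxn1 and Gclm). They are the 250 bases before the annotated start in RefSeq on GRCm38.p6, which is not the mm9 build named in the submitters' processing notes. They lie at chr8:119436897-119437146, plus strand, for Osgin1, at chr10:59951771-59952020, minus strand, for Ddit4, at chr2:152105274-152105523, plus strand, for Srxn1, and at chr3:122245307-122245556, plus strand, for Gclm. Capitals mark a match, on either strand, to TGACNNNGC (the core of an antioxidant response element), TGANTCA (AP-1), AGGTCA (the short element that nuclear receptors such as the thyroid hormone receptors bind) or ACGTG (the core of a hypoxia response element).
Osgin1: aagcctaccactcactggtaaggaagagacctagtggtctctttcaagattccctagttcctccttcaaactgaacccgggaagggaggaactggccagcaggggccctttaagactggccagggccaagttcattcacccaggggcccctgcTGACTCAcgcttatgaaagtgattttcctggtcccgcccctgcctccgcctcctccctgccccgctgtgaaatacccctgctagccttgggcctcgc
Ddit4: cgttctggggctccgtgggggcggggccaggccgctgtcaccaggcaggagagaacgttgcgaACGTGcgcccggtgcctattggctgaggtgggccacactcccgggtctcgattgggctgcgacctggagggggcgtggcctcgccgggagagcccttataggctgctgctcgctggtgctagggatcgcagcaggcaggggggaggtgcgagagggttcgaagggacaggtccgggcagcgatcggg
Srxn1: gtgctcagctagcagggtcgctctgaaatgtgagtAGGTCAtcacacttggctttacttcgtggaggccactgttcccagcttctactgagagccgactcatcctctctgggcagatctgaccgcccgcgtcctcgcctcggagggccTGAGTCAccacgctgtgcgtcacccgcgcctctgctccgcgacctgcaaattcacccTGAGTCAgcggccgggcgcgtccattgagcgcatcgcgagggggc
Gclm: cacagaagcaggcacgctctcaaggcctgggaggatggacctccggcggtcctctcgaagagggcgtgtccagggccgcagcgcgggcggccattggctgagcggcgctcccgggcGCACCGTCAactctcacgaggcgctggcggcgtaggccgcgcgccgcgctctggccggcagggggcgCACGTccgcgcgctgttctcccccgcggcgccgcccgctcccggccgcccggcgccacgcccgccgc
A window that also took in the 50 bases after the start was searched for 7 of the 9 genes, while Hmox1 and Gclc were without one. Osgin1 held TGANTCA at base -97 from the start and Ddit4 held ACGTG at -187. Srxn1 held TGANTCA at -102 and at -45 and AGGTCA at -215, and past the start, in bases that are not printed, TGACNNNGC at 29 and AGGTCA at 32. Gclm held TGACNNNGC at -134 and ACGTG at -67. Counted by gene, TGACNNNGC was in the windows of 4 of the 7 (Nfe2l2, Srxn1, Gclm and Txnrd1), against 12.4% of all 32851 windows. TGANTCA was in 2 of the 7 against 7.81% of all windows, ACGTG in 2 against 19.6%, and AGGTCA in 1 against 16.3%. Of the 4 genes with TGACNNNGC only Gclm has it in the bases shown. The windows of Nfe2l2 and Txnrd1 are not printed, and the site of Txnrd1 is in 1 of its 3 windows. The 7 genes had 9 windows in all, so counts by gene and shares of windows are not quite like measures. For Nfe2l2 the bases just after the start were not found in a GENCODE transcript of the gene. These matches describe letters, and no binding was measured.

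Osgin1 and Ddit4 rose in the T3 response pooled over both lines and all times. Each was higher with T3 in all 6 comparisons of 1 line at 1 time, as were 8.06% of the genes tested. Each T3 library has an untreated partner of its line and time, and over these 6 pairs Osgin1 rose by 1.69 on the log2(RPM + 1) scale, or 3.23-fold on that scale, and Ddit4 by 1.05, or 2.07-fold. Hmox1 rose in C17.2b and did not pass in the shared comparison. Nfe2l2 and the other 5 antioxidant genes did not pass the test for T3, in either line or at any time. With all pairs in the fit, none of the 9 genes passed at a single time, and Ddit4 did not pass within C17.2a. Without T3 there were changes in RPM too, at 24 h against 6 h, in a comparison that 56.1% of all genes tested passed. There Osgin1, Nfe2l2 and Txnrd1 rose, and Gclm, Hmox1 and Gclc fell. Nfe2l2 and Txnrd1 did not pass after median-ratio scaling of the libraries.

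Before these values are given, some facts on the libraries are needed. The C17.2a 24 h pair stood apart, because the Spearman correlation across genes between its T3 and untreated libraries was 0.91, against 0.966 to 0.98 in the other 5 pairs. Which library of the pair differed cannot be told from this value. In that pair 19.4% of genes were at least 2-fold lower and 6.5% at least 2-fold higher, against 1.17% to 1.86% lower and 2.14% to 4.94% higher in the others. The progenitor markers Nes (70.23 to 641.71 RPM), Vim (1112.07 to 4940.95 RPM) and Sox2 (61.96 to 305.94 RPM) were present in every library, while Fabp7 was low (1.87 to 22.1 RPM). The 7 of 8 progenitor markers in the table summed to 1348 to 3076 RPM with T3 and 2318 to 5766 RPM untreated. The sums were 1259 to 7308 RPM with T3 and 1371 to 4838 RPM untreated for 4 of 4 fibroblast markers, mostly from Col1a1 and Col1a2 and highest in the C17.2a T3 24 h library, and 62.1 to 622 RPM with T3 and 95.9 to 367 RPM untreated for 3 of 5 neuronal ones. For 3 of 5 astrocyte markers the sums were 36.7 to 56.1 RPM with T3 and 37.9 to 60.5 RPM untreated, and for 3 of 4 oligodendrocyte markers 99.6 to 222 RPM with T3 and 87.2 to 124 RPM untreated. Macrophage and endothelial markers were not analysed here, because 0 of 4 and 0 of 3 of those listed were in the table. The part of these marker differences in the results was not tested, and in bulk RNA fewer cells of a type and less RNA per cell cannot be told apart.

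Osgin1 was measured with 30 to 300 implied tags per library. In C17.2b it had 10.11, 12.93 and 42.19 RPM with T3 at 6, 12 and 24 h, against 1.99, 2.69 and 7.05 RPM untreated. In C17.2a it had 12.13, 11.39 and 19.20 RPM with T3 at those times, against 4.25, 3.11 and 9.08 RPM untreated. Every T3 library lay above every untreated library, whatever its line and time, a separation in this direction that 1.47% of the 10577 genes tested showed. The T3 level was highest at 24 h in each line, and so was the untreated level.

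**Figure D1:**
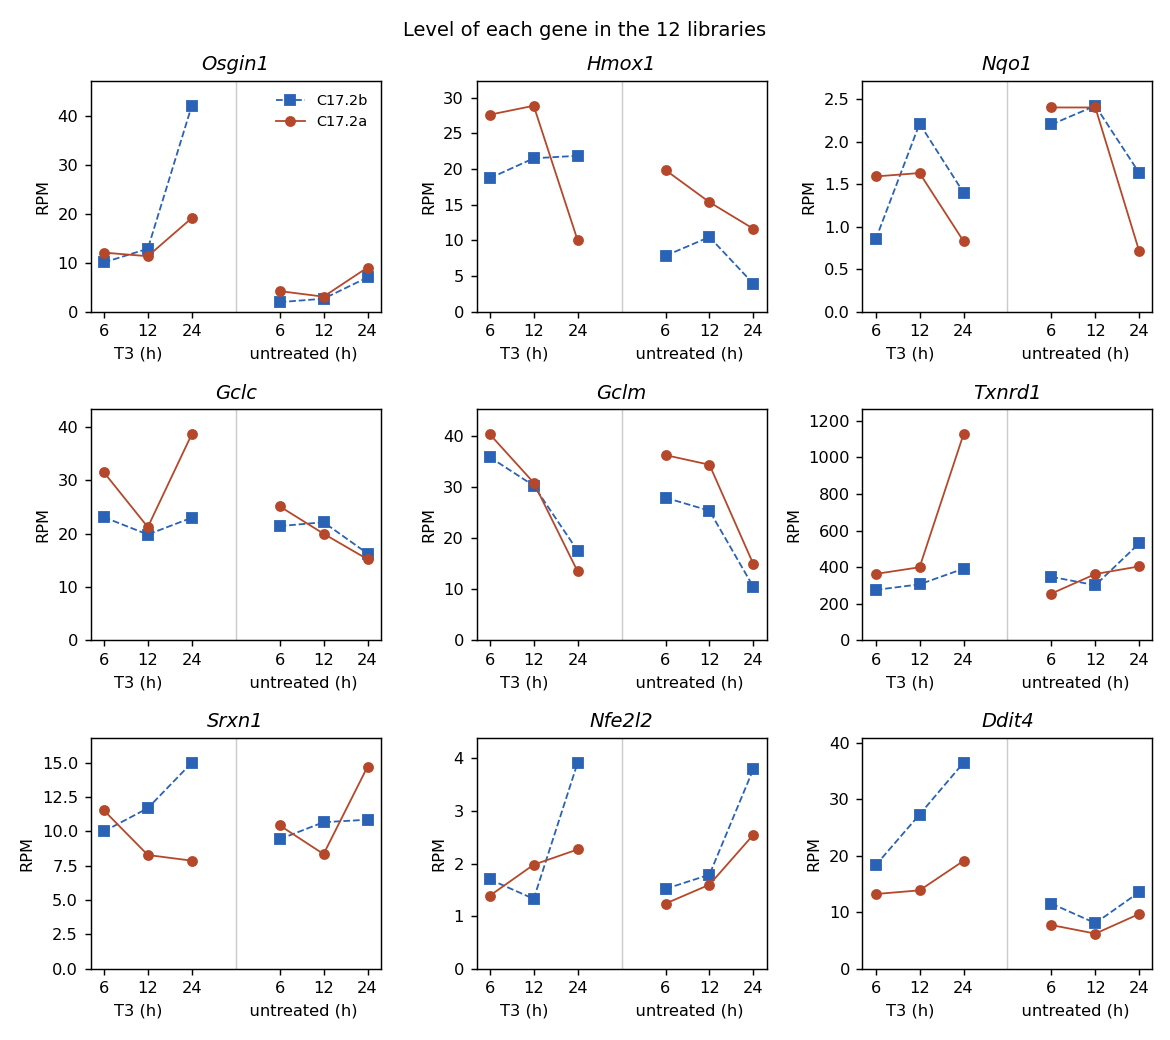
Levels of the 9 genes in all 12 libraries, in RPM, against time in hours, with T3 libraries on the left and untreated ones on the right of each panel and 1 line each for C17.2b and C17.2a. Each point is 1 library, and the 6 T3 points of Osgin1 (10.11 to 42.19 RPM) lie above its 6 untreated points (1.99 to 9.08 RPM), while those of Nfe2l2 (1.24 to 3.92 RPM) intermingle.

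Ddit4 was measured with 70 to 308 implied tags per library. In C17.2b it had 18.30, 27.28 and 36.44 RPM with T3 at 6, 12 and 24 h, against 11.52, 8.07 and 13.56 RPM untreated. In C17.2a it had 13.22, 13.87 and 19.08 RPM with T3 at those times, against 7.73, 6.22 and 9.70 RPM untreated. Ddit4 was higher with T3 in all 6 pairs, as were 8.06% of the genes tested. Within each line every T3 library lay above every untreated one, and the share of all genes that did so was not counted. The groups met only across lines, where the lowest T3 value of C17.2a (13.22 RPM) lay just under the highest untreated value of C17.2b (13.56 RPM).

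Hmox1, the inducible heme oxygenase that opens heme to biliverdin, iron and carbon monoxide, had 29 to 408 implied tags per library. In C17.2b it had 18.73, 21.52 and 21.87 RPM with T3 at 6, 12 and 24 h, against 7.86, 10.49 and 3.93 RPM untreated. In C17.2a it had 27.63, 28.88 and 10.02 RPM with T3 at those times, against 19.87, 15.37 and 11.64 RPM untreated. The level was higher with T3 in 5 of 6 pairs, the exception being the C17.2a 24 h pair. In C17.2b the T3 and untreated libraries did not overlap, and in C17.2a they did. The share of all genes that separated in this way within a line was not counted.

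The comparison shared by all 6 pairs tests the T3 difference averaged over them. A gene can therefore pass without a response in each line or at each time. The comparison was fitted with limma with the pair as a block, and p-values were adjusted by Benjamini-Hochberg over 10577 genes. Of the 9 genes 2 passed the threshold of 0.05, both higher with T3, where 6.45% of all genes tested passed, 4.09% higher and 2.35% lower. Osgin1 changed by 1.69 (SE 0.19, 95% interval 1.27 to 2.11, adjusted p = 0.00113 in limma, higher in 6 of 6 pairs) and ranked 50 by log2 fold change among all genes. Ddit4 changed by 1.05 (SE 0.16, 95% interval 0.69 to 1.40, adjusted p = 0.0051 in limma, higher in 6 of 6 pairs) and ranked 164. Cell type markers also passed in this comparison: of 7 progenitor markers Notch1 (-0.87), Vim (-1.04) and Sox2 (-1.12) were lower with T3, and of 3 neuronal ones Map2 (-0.67) was lower, with adjusted p of 0.00162 to 0.00861 in limma. None of the 2 astrocyte and 4 fibroblast markers tested passed. Of 3 oligodendrocyte markers tested 1 passed, and it was higher with T3. The calls of Osgin1 and Ddit4 held under every alternative run, with adjusted p of 1.99e-05 to 0.0411 for Osgin1 and 0.000679 to 0.0247 for Ddit4 in limma.

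Hmox1 had a shared value of 0.91 (SE 0.26, 95% interval 0.31 to 1.51, adjusted p = 0.0858 in limma). Without the C17.2a 24 h pair it was 1.13 and passed (adjusted p = 0.00295 in limma), in a fit in which 15% of 10391 genes passed, while under the other alternatives its adjusted p lay between 0.0523 and 0.277. Over the 9 genes the median was 0.23 and over all genes tested it was -0.01.

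The catalytic subunit of glutamate-cysteine ligase, Gclc, had 19.84 to 38.65 RPM with T3 and 15.21 to 25.13 RPM untreated. Its shared value was 0.35 (SE 0.18, 95% interval -0.06 to 0.76, adjusted p = 0.356 in limma). The modifier subunit Gclm had 13.48 to 40.35 RPM with T3 and 10.44 to 36.26 RPM untreated, with a shared value of 0.19 (SE 0.13, 95% interval -0.11 to 0.49, adjusted p = 0.515 in limma). For both subunits of the enzyme that limits glutathione synthesis the T3 and untreated ranges overlapped, and neither passed.

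Thioredoxin reductase Txnrd1, which passes electrons from NADPH to thioredoxin, had 275.69 to 1127.07 RPM with T3 and 255.61 to 530.77 RPM untreated. Its shared value was 0.23 (SE 0.22, 95% interval -0.28 to 0.74, adjusted p = 0.664 in limma), and it was -0.020 without the C17.2a 24 h pair, where its sign turned. Sulfiredoxin Srxn1, which restores overoxidised peroxiredoxins, had 7.87 to 15.00 RPM with T3 and 8.35 to 14.70 RPM untreated. Its shared value was -0.01 (SE 0.17, 95% interval -0.39 to 0.36, adjusted p = 0.982 in limma), and it was 0.15 without the C17.2a 24 h pair.

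The quinone reductase Nqo1 and Nfe2l2 itself had few tags, 7 to 42 and 14 to 29 per library, so that a moderate change in them would be hard to see at this depth. Nqo1 had 0.83 to 2.21 RPM with T3 and 0.71 to 2.42 RPM untreated, and was lower with T3 in 5 of 6 pairs. Its shared value was -0.28 (SE 0.15, 95% interval -0.62 to 0.06, adjusted p = 0.38 in limma). Nfe2l2 had 1.33 to 3.92 RPM with T3 and 1.24 to 3.80 RPM untreated, with a shared value of 0.01 (SE 0.13, 95% interval -0.28 to 0.29, adjusted p = 0.984 in limma). The log2(RPM + 1) scale understates changes at levels as low as these.

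**Figure D2:**
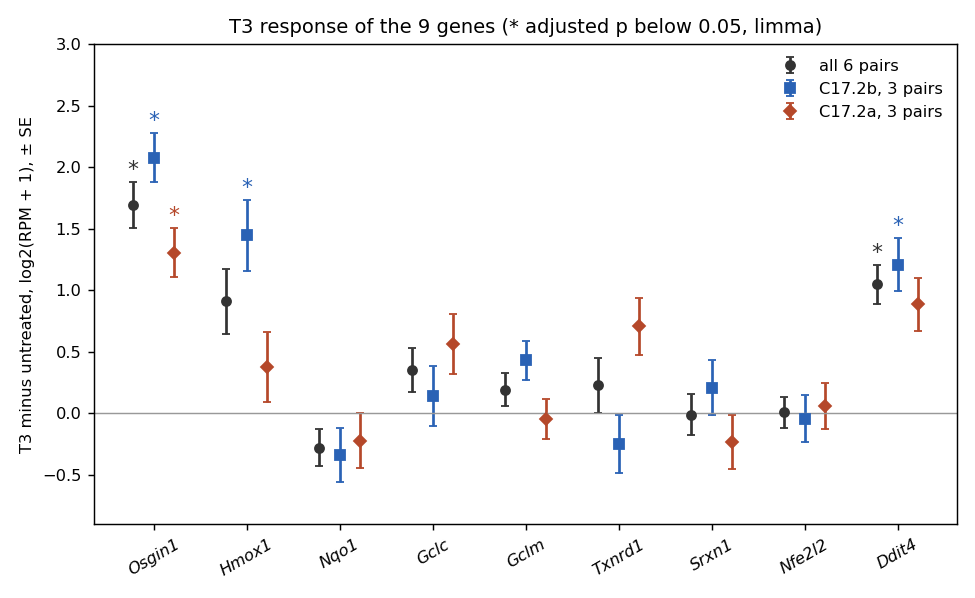
T3 minus untreated on the log2(RPM + 1) scale for each gene, over all 6 pairs and within each line (3 pairs), as limma estimates with error bars of 1 SE. Asterisks mark an adjusted p below 0.05: Osgin1 (1.69) and Ddit4 (1.05) over all pairs, Osgin1 (2.08), Hmox1 (1.45) and Ddit4 (1.21) in C17.2b, and Osgin1 (1.31) in C17.2a.

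Within C17.2b, the line with receptor beta, 3 of the 9 genes passed, all higher with T3, where 3.11% of all genes tested did and 2.25% were higher. Osgin1 rose by 2.08 (SE 0.20, n = 3 pairs, adjusted p = 0.00181 in limma), Hmox1 by 1.45 (SE 0.29, adjusted p = 0.0358) and Ddit4 by 1.21 (SE 0.22, adjusted p = 0.0224). Osgin1 lost its call only without a time block (adjusted p = 0.163 in limma). Ddit4 lost its call without the C17.2b 12 h or 24 h pair (0.254 and 0.194 in limma) and without a time block (0.145). Hmox1 lost its call without any single pair of this line (0.149, 0.141 and 0.222 in limma for 6, 12 and 24 h), without the 6 h pair of C17.2a (0.0769), with no filter on low values (0.0618) and without a time block (0.234). Gclm at 0.43 (SE 0.16, adjusted p = 0.274 in limma) and Txnrd1 at -0.25 (SE 0.23, adjusted p = 0.814) did not pass.

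Within C17.2a, the line with receptor alpha, 1 of the 9 genes passed, where 1.37% of all genes tested did. Osgin1 rose by 1.31 (SE 0.20, n = 3 pairs, adjusted p = 0.0213 in limma). That call was lost without the C17.2a 6 h or 12 h pair (adjusted p = 0.137 and 0.127 in limma), without the C17.2b 6 h or 12 h pair (0.0636 and 0.0692), with a pseudocount of 5 (0.065), without a time block (0.773) and from the libraries of this line alone (0.19). Ddit4 at 0.88 (SE 0.22, adjusted p = 0.107 in limma), Txnrd1 at 0.71 (SE 0.23, adjusted p = 0.201), Gclc at 0.56 (SE 0.25, adjusted p = 0.305) and Hmox1 at 0.38 (SE 0.29, adjusted p = 0.515) did not pass. Without the 24 h pair of this line, the value was 0.32 for Txnrd1 and 0.66 for Hmox1 (adjusted p = 0.215 in limma).

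The difference between the lines was tested directly, as the response of C17.2b minus that of C17.2a. None of the 9 genes passed and 0% of all genes tested did, with 583 genes at an unadjusted p under 0.05 in limma. The difference was 1.07 for Hmox1 (SE 0.40, 95% interval 0.14 to 2.00, adjusted p = 0.722 in limma) and 0.77 for Osgin1 (SE 0.28, 95% interval 0.12 to 1.42, adjusted p = 0.722). It was -0.96 for Txnrd1 (SE 0.33, 95% interval -1.71 to -0.20, adjusted p = 0.722 in limma) and 0.32 for Ddit4 (SE 0.31, adjusted p = 0.746). The median of all genes tested was 0.12. A response that passed in one line and not in the other was therefore not shown to differ between them.

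Single pairs have 1 library on each side and no replicate check. They were described by the ratio of RPM after a prior of 2 tags, where a pair held at least 50 implied tags. Osgin1 was at least 2-fold higher with T3 in all 6 pairs, with ratios of 4.93, 4.57 and 5.80 at 6, 12 and 24 h in C17.2b and of 2.80, 3.51 and 2.09 in C17.2a. Genes at least 2-fold higher were 3.46%, 3.2% and 4.94% of those with enough tags at these times in C17.2b and 2.14%, 2.63% and 6.5% in C17.2a. Every ratio of Osgin1 in C17.2b was above every ratio in C17.2a, and the share of all genes with such a split was not counted. The direct test of the difference between the lines did not pass for Osgin1 (adjusted p = 0.722 in limma). No pair had any of the 9 genes at least 2-fold lower among those over the tag limit, where 1.75%, 1.72% and 1.86% of genes were so in C17.2b and 1.62%, 1.17% and 19.4% in C17.2a. Nqo1 in the C17.2b 6 h pair lay at that limit, with 8 tags with T3 and 42 untreated (49.96 before rounding), and its ratio was 0.46 (0.85 RPM with T3 against 2.20 RPM untreated), so at a limit of 20 tags it was more than 2-fold lower.

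Hmox1 was at least 2-fold higher in the 3 pairs of C17.2b, with ratios of 2.38, 2.03 and 5.27, and its ratios in C17.2a were 1.39, 1.87 and 0.87. Ddit4 was at least 2-fold higher in 3 pairs, those of C17.2b at 12 h (3.33) and 24 h (2.65) and of C17.2a at 12 h (2.19), and its other ratios were 1.59 to 1.95. After median-ratio scaling Hmox1 in the C17.2b 12 h pair was at 1.93, under the limit, and Ddit4 in the C17.2a 24 h pair at 2.24, over it. In the C17.2a 24 h pair, Gclc (2.52) and Txnrd1 (2.79) also passed 2-fold, at 38.65 and 1127.07 RPM with T3 against 15.21 and 404.50 RPM untreated. The same pair had Srxn1 at a ratio of 0.54, Gclm at 13.48 RPM with T3 against 14.90 RPM untreated, and Hmox1 at 10.02 RPM with T3 against 11.64 RPM untreated. The antioxidant genes thus did not move one way in that pair.

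**Figure D3:**
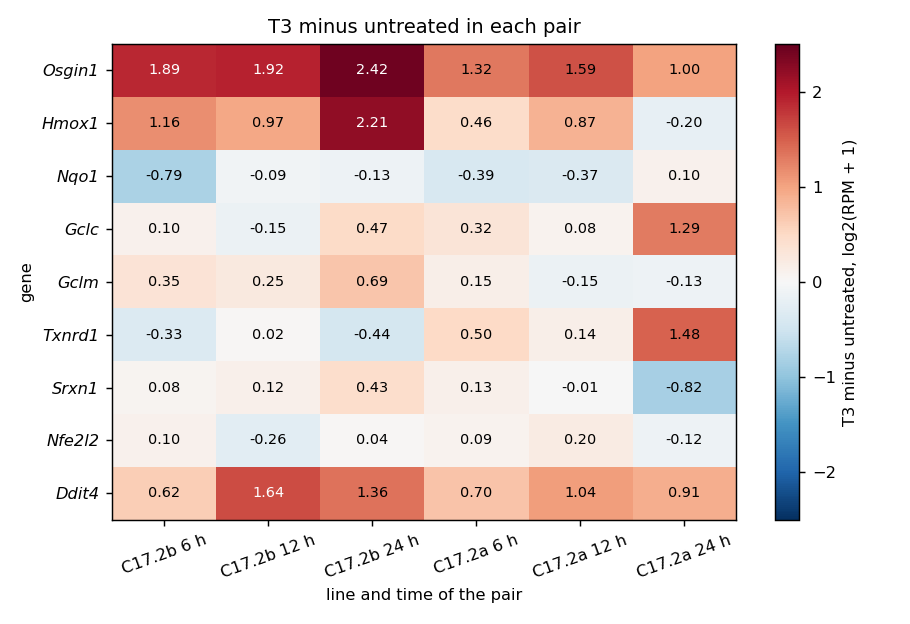
T3 minus untreated on the log2(RPM + 1) scale for each gene (down) in each pair of libraries (across), as a colour scale with the value in each cell. Osgin1 and Ddit4 are above 0 in all 6 pairs, and the C17.2a 24 h column holds the highest value of Gclc (1.29) and Txnrd1 (1.48) and the lowest of Srxn1 (-0.82).

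The response at each time pools both lines, and none of the 9 genes passed at 6, 12 or 24 h, where 0.161%, 0.492% and 1.06% of all genes tested did. Osgin1 was at 1.61, 1.75 and 1.71 (SE 0.37 each, adjusted p = 0.208, 0.145 and 0.101 in limma). Ddit4 was at 0.66, 1.34 and 1.14 (SE 0.25 each, adjusted p = 0.529, 0.111 and 0.105 in limma). The value of Osgin1 was about the same at each time, and that of Ddit4 was lowest at 6 h. Leaving out the pair of C17.2a at 24 h, Osgin1 passed at all 3 times (adjusted p = 0.00109, 0.00045 and 0.000563 in limma), as did Hmox1 (0.0305, 0.0155 and 0.000627), while Ddit4 passed at 12 and 24 h (0.00137 and 0.0107). In that fit 6.54%, 6.64% and 5.66% of all genes passed, and the 24 h value rests on C17.2b alone. Leaving out the C17.2b 24 h pair in its place, the same genes passed at 6 and 12 h. The 24 h value then rests on the 1 pair of C17.2a, with the same limit. It was 1.003 for Osgin1, 0.91 for Ddit4, 1.29 for Gclc, 1.48 for Txnrd1, -0.82 for Srxn1 and -0.20 for Hmox1.

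The response at 24 h minus that at 6 h did not pass for any of the 9 genes, nor for any gene tested (0%), with 593 genes at an unadjusted p under 0.05 in limma. The difference was 0.11 (SE 0.52) for Osgin1, 0.47 (SE 0.35) for Ddit4, 0.20 (SE 0.73) for Hmox1 and 0.67 (SE 0.35) for Gclc. Leaving out either 24 h pair leaves 1 pair at that time, so only values are given. Without the C17.2b 24 h pair the difference was 1.08 for Gclc, 1.39 for Txnrd1, -1.003 for Hmox1 and -0.93 for Srxn1. Without the C17.2a 24 h pair it was 0.26, -0.52, 1.41 and 0.33 for the same genes.

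Untreated C17.2b cells differed from untreated C17.2a cells in 1 of the 9 genes, where 8.85% of 10192 genes tested did and 5.92% were lower. In RPM 299 genes passed as higher and 603 as lower in C17.2b, and after median-ratio scaling 344 and 443. Hmox1 was lower in C17.2b by a log2 value of -1.04 (SE 0.20, n = 3 times, adjusted p = 0.0123 in limma, lower at all 3 times). The call was lost without the untreated 6 h library of C17.2a (adjusted p = 0.079 in limma) or of C17.2b (0.0667), and without a time block (0.87). With T3 the ranges of Hmox1 in the lines overlapped, 18.73 to 21.87 RPM in C17.2b and 10.02 to 28.88 RPM in C17.2a. Gclm at -0.42 (SE 0.14, adjusted p = 0.0993 in limma), Osgin1 at -0.43 (SE 0.21, adjusted p = 0.251) and Ddit4 at 0.43 (SE 0.17, adjusted p = 0.165) did not pass.

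More of these genes passed with time in untreated cells than in the shared T3 response, and so did more of all genes. From the untreated libraries alone, 24 h against 6 h, 3 of the 9 genes were higher and 3 lower, where 43% of all genes tested were higher and 13.1% lower (56.1% in all). The median of all genes was 0.40 in RPM and -0.03 after median-ratio scaling, so values are also given relative to that median. In RPM 4384 genes passed as higher and 1336 as lower, and after that scaling 2433 and 2718. A share of 6 in 9 is thus near the background.

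Gclm changed by -1.28 (SE 0.17, adjusted p = 0.000226 in limma), or -1.68 relative to the median, with 10.44 and 14.90 RPM at 24 h in C17.2b and C17.2a against 27.92 and 36.26 RPM at 6 h. Osgin1 changed by 1.18 (SE 0.25, adjusted p = 0.00291 in limma), or 0.79 relative to the median, with 7.05 and 9.08 RPM at 24 h in C17.2b and C17.2a against 1.99 and 4.25 RPM at 6 h. Hmox1 changed by -0.78 (SE 0.25, adjusted p = 0.0219 in limma) and Gclc by -0.53 (SE 0.19, adjusted p = 0.033). Osgin1 and the 3 genes that fell also passed after median-ratio scaling, with -1.74 for Gclm, 0.78 for Osgin1, -1.21 for Hmox1 and -0.99 for Gclc.

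Nfe2l2 changed by 0.80 (SE 0.24, adjusted p = 0.018 in limma) and Txnrd1 by 0.64 (SE 0.20, adjusted p = 0.0196). Relative to the median these were 0.40 and 0.24, and neither passed after median-ratio scaling (0.46 and 0.15, adjusted p = 0.126 and 0.602 in limma). Nqo1 at -0.64 (SE 0.27, adjusted p = 0.0645 in limma) passed after that scaling, at -0.90 (adjusted p = 0.0177). Ddit4 at 0.26 (SE 0.21) and Srxn1 at 0.32 (SE 0.23) did not pass, and both had the opposite sign after scaling, -0.19 and -0.13. Osgin1 thus rose with T3 and with time without T3, while Hmox1 rose with T3 in C17.2b and fell with time without it.

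Leaving out 1 untreated library ended several of these calls. Gclc lost its call without any single library of 6 or 24 h (adjusted p = 0.0522 to 0.314 in limma), Nfe2l2 without either 6 h library or the C17.2b 24 h library (0.0835 to 0.139), Hmox1 and Txnrd1 without the C17.2a 6 h library (0.175 and 0.204) or the C17.2b 24 h library (0.114 and 0.0792), and Osgin1 without the C17.2b 6 h library (0.0659). Gclm kept its call in each case, and Nqo1 gained one without the C17.2b 24 h library (0.00876).

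**Figure D4:**
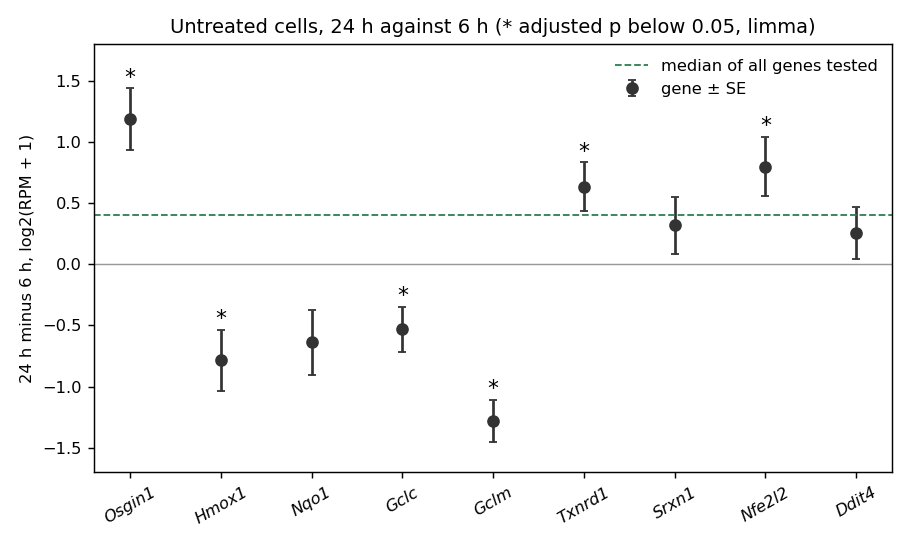
Untreated cells, 24 h minus 6 h on the log2(RPM + 1) scale, as limma estimates with SE for each of the 9 genes, with the median of all genes tested (0.40) as a dashed line. Asterisks mark an adjusted p below 0.05: Osgin1 (1.18), Nfe2l2 (0.80) and Txnrd1 (0.64) lie above the dashed line, and Gclm (-1.28), Hmox1 (-0.78) and Gclc (-0.53) lie below 0.

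The wider pathways of these genes were described with 8 lists of 71 genes, also chosen with earlier results of these data known. Of these genes 69 were in the table and 66 were tested for the shared T3 response. Of the 66 genes 4 rose and 2 fell, or 6.06% and 3.03%, against 4.09% and 2.35% of all genes tested, with a median of 0.05 against -0.01. Without the C17.2a 24 h pair 10 of 65 rose and 5 fell, or 15.4% and 7.69%, against 9.14% and 5.81% of all genes.

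Partners and repressors of Nrf2 had 0 of 8 members past the threshold in either direction. Among them the Keap1-binding autophagy receptor Sqstm1 was at 0.23 (SE 0.11), the small Maf partner Mafg at 0.21 (SE 0.11) and the repressor Bach1 at -0.17 (SE 0.10). Of 9 glutathione genes 0 rose and 1 fell, which was the gamma-glutamylcyclotransferase Ggct at -0.65 (SE 0.16, adjusted p = 0.0428 in limma). It had 0.71 to 1.69 RPM with T3 and 1.93 to 3.88 RPM untreated. At these levels the call was lost with a pseudocount of 5 (adjusted p = 0.0508 in limma) and without a time block (0.0893). It was also lost without any single pair but those of C17.2a at 6 and 24 h (0.0841 to 0.156). The glutathione transferase Gstp1 was at 0.34 (SE 0.12, adjusted p = 0.166 in limma), a value that is uncertain because Gstp2 is a near-identical copy.

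None of 10 thioredoxin and peroxiredoxin genes passed, with thioredoxin Txn1 at -0.25 (SE 0.10), its mitochondrial relative Txn2 at 0.17 (SE 0.08) and the thioredoxin inhibitor Txnip at -0.42 (SE 0.22). Of 6 genes of NADPH supply 1 rose, which was malic enzyme Me1 at 1.19 (SE 0.24, adjusted p = 0.0177 in limma), with 190.57 to 600.69 RPM with T3 and 123.84 to 269.14 RPM untreated. It no longer passed when the pair of C17.2b at 12 or 24 h or of C17.2a at 12 h was left out (adjusted p = 0.0593 to 0.0788 in limma). The pentose phosphate enzymes Taldo1 at -0.35 (SE 0.09, adjusted p = 0.0623 in limma) and Tkt at 0.39 (SE 0.11, adjusted p = 0.0741) did not pass, although both did after median-ratio scaling (0.0487 and 0.0403). None of 8 heme and iron genes passed, with the transferrin receptor Tfrc at 0.47 (SE 0.13, adjusted p = 0.0785 in limma) and the iron exporter Slc40a1 at 0.48 (SE 0.19). Without the C17.2a 24 h pair Tfrc (0.35), Slc40a1 (0.62), Tkt (0.49), Txn1 (-0.35), Taldo1 (-0.30) and the glutaredoxin Glrx (-0.44) passed, with adjusted p of 0.00127 to 0.0282 in limma. Catalase Cat at 0.34 (SE 0.16), Sod2 at 0.26 (SE 0.12) and Sod1 at -0.07 (SE 0.09) did not pass either.

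Around Ddit4, 0 of 11 genes of mTOR control passed, with the mTOR complex subunits Mlst8 at -0.31 (SE 0.12, adjusted p = 0.203 in limma) and Rptor at 0.17 (SE 0.10), and the activating GTPase Rheb at 0.21 (SE 0.16). Of 11 genes listed as stress regulators of Ddit4, 3 rose and 1 fell. The hypoxia factor Epas1 had 48.41 to 193.44 RPM with T3 and 1.89 to 8.47 RPM untreated. Its relative Hif1a rose by 0.70 (SE 0.10, adjusted p = 0.00467 in limma), with 111.62 to 196.33 RPM with T3 and 73.33 to 96.12 RPM untreated. The glucocorticoid receptor Nr3c1 rose by 0.65 (SE 0.10, adjusted p = 0.00551 in limma), with 63.20 to 85.17 RPM with T3 and 42.66 to 51.70 RPM untreated. For these 3 genes every T3 library lay above every untreated one, as for 1.47% of all genes tested. Their calls held under every alternative run. The stress factor Atf3, named after its values were seen because it was the gene of this list that fell, changed by -0.88 (SE 0.18, adjusted p = 0.019 in limma). Its call was lost when the same pairs as for Me1 were left out (0.0642 to 0.0839) and without a time block (0.103).

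**Figure D5:**
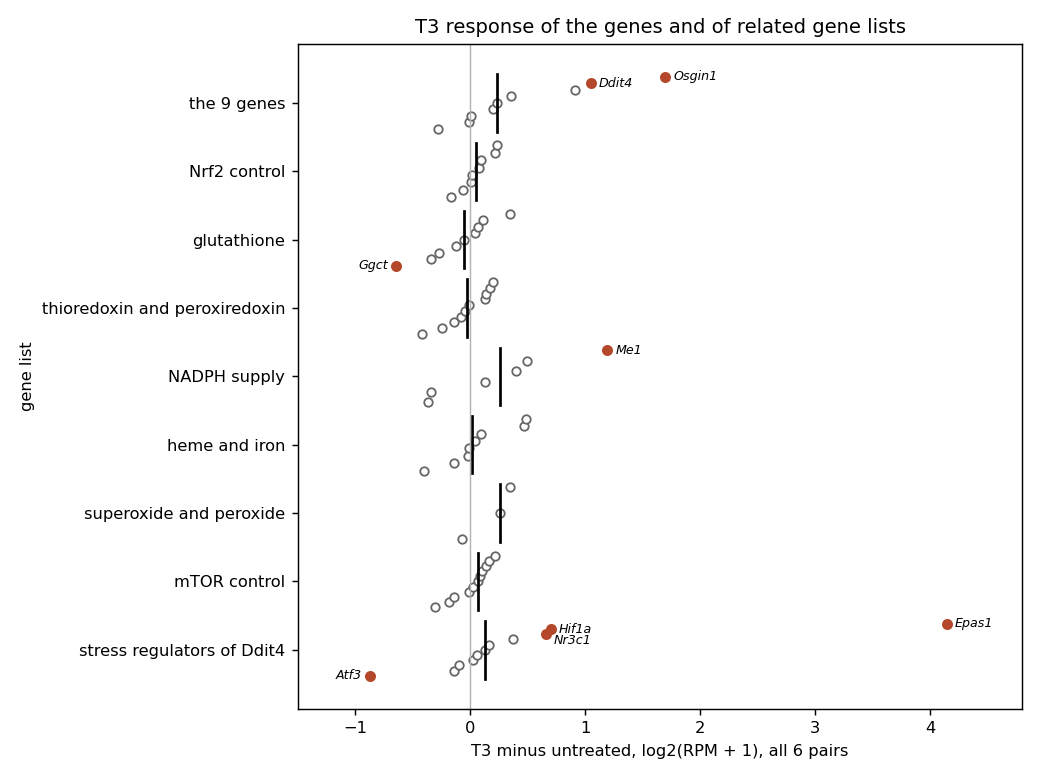
Shared log2 fold change (T3 minus untreated, log2(RPM + 1), 6 pairs) of the 9 genes and of each tested member of the 8 related lists, 1 point per gene, with the median of a list as a vertical bar. Filled, named points passed an adjusted p of 0.05 in limma: Osgin1 and Ddit4 among the 9 genes, and Ggct, Me1, Epas1, Hif1a, Nr3c1 and Atf3 in the lists.

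Genes whose levels were most like those of Osgin1 over the 12 libraries, by Pearson's r of log2(RPM + 1), were the phosphatidate phosphatase Lpin3 (0.992), Taf13 (0.985), the growth factor Vegfa (0.974) and the chloride channel Ano1 (0.968). The r of Ddit4 with Osgin1 was 0.84, which ranked 205 among the genes tested, and that of Hmox1 was 0.39. For Ddit4 the 4 most alike were Pcdh1 (0.959), Tacc1 (0.957), Capns1 (0.952) and Klk10 (0.951). For Hmox1 they were the folate and heme transporter Slc46a1 (0.921), Mapk4 (0.904), Rexo2 (0.896) and Tmem86a (0.885). These values describe libraries that share lines, times and depth, and they carry no test.

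Over the 6 differences between T3 and untreated libraries, the genes most like Osgin1 were Pdgfrl (0.995), Efr3b (0.994), Atp1b2 (0.993) and Ddit3 (0.991), and Hmox1 ranked 17 with an r of 0.977. Those most like Hmox1 were Commd6 (0.997), D0H4S114 (0.996), Gatsl2 (0.992) and Arfgap1 (0.986), and those most like Ddit4 were Slc35a3 (0.987), Dpp8 (0.981), Dock6 (0.975) and Zmat1 (0.973). The size of the T3 difference thus ran together from pair to pair in Osgin1 and Hmox1, with both highest in the C17.2b 24 h pair and lowest in the C17.2a 24 h pair. Over the same 6 differences the r of Osgin1 was 0.86 with Gclm, 0.83 with Srxn1, 0.51 with Ddit4 and 0.04 with Nfe2l2. It was -0.21 with Nqo1, -0.54 with Gclc and -0.92 with Txnrd1. These r values without the C17.2a 24 h pair, which stood apart over all genes, were not computed.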

How the data were processed

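The authors deposited 1 table of RPM per gene symbol for 12 digital gene expression libraries. The unit was read from the values, since each column had a sum of 1000000 within rounding. Per the submitters' processing notes the build was mm9, while the aligner and the way tags were matched to genes are not given in the sources used here. N/A was read as 0, and the 9 genes had none. Between 89.4% and 94.4% of values under 1.5 RPM were whole multiples of the smallest step (tolerance 0.0055 RPM), so whole reads were not recovered and no count test was run. Limits drawn from tag numbers cover counting error only.

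Statistics used log2(RPM + 1) with limma 3.58.1 in R 4.3.3 (lmFit, eBayes with a trend) on genes that reached 1 RPM in 3 or more libraries, with Benjamini-Hochberg adjustment over all of them. On this scale the fold of a low gene is understated. No group had a second library, so each T3 library was paired with the untreated one of its line and time, and the 6 pairs stood in for replicates. Whether cultures were separate is not stated, and p-values measure only the spread between these pairs. The test was tried on simulated data first. The genes and lists were chosen with earlier results of these data known. In each list the 3 members of smallest p were named, and for Osgin1, Hmox1 and Ddit4 the 4 genes most alike. Promoter windows came from RefSeq. Alternatives were other pseudocounts, filters and scaling, other blocks, each line alone, time as a number and leaving out pairs or libraries.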

Additional observations from a re-analysis of the deposited data

Results flagged for a closer look

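Srxn1, the sulfiredoxin gene, had 1 pair far from the others. T3 minus untreated was -0.82 on the log2(RPM + 1) scale in the C17.2a 24 h pair, against -0.01 to 0.43 in the other 5 pairs, and the gap was 0.647 of the whole range. The level there was 7.87 RPM with T3 against 14.70 RPM untreated. This pair is also the one that stood apart over all genes, with 19.4% of genes at least 2-fold lower with T3. Its T3 value was the lowest of the T3 libraries (7.87 to 15.00 RPM). Its untreated value was the highest of the untreated ones (8.35 to 14.70 RPM). The part of either library in the value was not tested. Chance alone flags about 1 in 20 groups, and 9 genes were looked at.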

How the results depend on the processing

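The number of all genes past the threshold was the result that moved most. Without a time block it was 240 for the shared T3 response (main 682), 86 for C17.2b (329), 28 for C17.2a (145) and 1 for the untreated lines (902), and from each line alone it was 1086 for C17.2b and 12 for C17.2a. Without a filter it was 11 at 6 h (main 17) and 30 at 12 h (52), with a pseudocount of 5 it was 30 at 12 h, and with median-ratio scaling it was 26 at 6 h. Of the 9 genes 0 passed in C17.2a with a pseudocount of 5, without a time block or from that line alone, and 0 in C17.2b and in the untreated lines without a time block.

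Leaving out each pair or untreated library in turn gave 319 to 1554 genes for the shared response (2 to 3 of the 9), 39 to 1178 for C17.2b (1 to 3), 32 to 462 for C17.2a (0 to 1), 0 to 2 for the difference between lines (0), 0 to 682 at 6 h (0 to 2), 0 to 690 at 12 h (0 to 3), 0 to 4305 at 24 h (0 to 5), 0 to 3342 for 24 h minus 6 h (0 to 4), 412 to 1178 for the untreated lines (0 to 1) and 3940 to 5864 for untreated time (2 to 6). In the comparisons by time, leaving out a pair leaves 1 pair at its time, so counts for that time measure no spread there. The sign turned for Hmox1 at 24 h (-0.20 to 2.21), for Txnrd1 at 24 h (-0.44 to 1.48) and, in the shared response, for Txnrd1 (-0.020 to 0.36), Srxn1 (-0.10 to 0.15) and Nfe2l2 (-0.030 to 0.061). With median-ratio scaling, untreated time turned to -0.13 for Srxn1 and -0.19 for Ddit4. The cause of these changes was not tested. Of the other log2 values of the 9 genes, 243 kept their direction and side of the threshold. A further 11 lost the call and 1 gained it. These counts leave out the runs without a pair or library, and they include the runs on each line alone. With a filter at 5 RPM, Nqo1 and Nfe2l2 were in no test and Osgin1 in none of untreated cells. Depth limits Nqo1 and Nfe2l2.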
